A study of Mus musculus with 6 samples.

Results

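The genes described here are 10 of the 23420 named in the count table, taken by symbol: Gclc, Gclm, Gss and Gsr of glutathione synthesis and recycling, Nqo1, Hmox1, Txnrd1 and Srxn1 as NRF2 target genes, and Nfe2l2 and Keap1, which encode NRF2 and its inhibitor. Messenger RNA was sequenced from mouse epidermal keratinocytes that had been cultured in a low-calcium medium and sampled between passage 8 and passage 10. Every culture carried loxP-flanked (floxed) Gata6 alleles and was exposed for 6 hours to 4-hydroxytamoxifen at 1 µM. The 3 libraries labelled iKO also carried K14CreERT2, a tamoxifen-dependent Cre recombinase under the keratin 14 promoter of basal keratinocytes, and the 3 libraries labelled WT did not. Each library is named by its label and column number (WT 2, WT 3, WT 4, iKO 3, iKO 4 and iKO 33). The labels do not tell whether the 3 libraries under one label stem from different cultures or mice. The p-values therefore set group differences against the spread of these libraries only, which may be technical.

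Glutathione is a tripeptide that cells use as their main soluble antioxidant. It is made in a pair of steps, of which the first is catalysed by glutamate-cysteine ligase, an enzyme with a catalytic subunit (Gclc) and a modifier subunit (Gclm), and the second by glutathione synthetase (Gss). Glutathione reductase (Gsr) returns the oxidised form to the reduced form with NADPH. NRF2 is a transcription factor that KEAP1 holds in the cytoplasm and passes to the proteasome. Under oxidative or electrophilic stress NRF2 escapes, binds antioxidant response elements together with small MAF proteins, and raises transcription of detoxifying and antioxidant enzymes. In epidermis this pathway is known for its part in protection from ultraviolet light and chemicals and in the formation of the cornified layer.

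Library depth lay between 21943467 and 83337263 gene counts. Levels are given as normalised CPM, the gene's counts scaled to a common library size. Gata6 itself was at 0.519 to 5.37 CPM in the libraries labelled WT and at 14.2 to 21.02 in those labelled iKO. This was against the direction of the labels, with no overlap (log2 fold change 2.60, edgeR adjusted p = 0.180, DESeq2 0.00130). Counts per gene do not show whether the floxed exons were lost, so the groups are named by their labels, and every fold change is iKO label minus WT label. Esr1, whose hormone-binding part is used in CreERT2, was at 0.0633 to 0.284 CPM under the label WT and 29.6 to 99.3 under the label iKO. Xist, the RNA of the inactive X chromosome, spanned 605 to 889 CPM under the label WT and 0.0824 to 2.62 under the label iKO. The Y-linked gene Kdm5d was at 0 in all libraries labelled WT and spanned 15.3 to 22.9 CPM in the others. Genotype label and sex of the cells therefore cannot be told apart in any result below, although none of the 10 genes lies on a sex chromosome. All 6 libraries held the keratinocyte keratins, with Krt14 at 12916 to 21993 CPM and Krt5 at 14719 to 23621 CPM. Of the 11 keratinocyte markers, 2 (18.2%) had groups that did not overlap, against 21.9% of all tested genes. Trp63, the transcription factor p63, stood at 320 ± 12.3 CPM under the label WT and 200 ± 7.86 under the label iKO (SD, n = 3; log2 fold change -0.68, edgeR adjusted p = 0.0529, DESeq2 3.73e-07), and Cdh1, E-cadherin, at 433 ± 13.0 and 635 ± 82.5 CPM (0.55, edgeR adjusted p = 0.130, DESeq2 0.00910). Their part in the results below was not tested. Markers of other cells were low. The 10 fibroblast genes summed to 4.35 to 7.97 CPM under the label WT and 6.11 to 22.6 under the label iKO. Dcn and Lum were at 0 throughout, and Postn held 18.4 CPM in iKO 33. The 4 fibroblast genes that were tested were all at higher values under the label iKO (median log2 fold change 1.17). DESeq2 called 1 of these 4, Col6a2 (adjusted p = 0.00359), against 5.74% of all genes it tested. Its means were 0.378 and 1.34 CPM with no overlap (edgeR adjusted p = 0.118). The 7 immune genes summed to 2.39 to 4.34 and 3.02 to 3.61 CPM. The 7 melanocyte genes summed to 6.08 to 11.9 and 5.69 to 8.47 CPM, and the 5 endothelial genes to 9.31 to 19.0 and 7.29 to 8.94 CPM.

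The libraries labelled iKO had less transcript of Gclc and of Gsr, at 41.2% and 57.6% of the mean level in the libraries labelled WT, and their ranges did not overlap. The 8 other genes had overlapping ranges and no common direction: 4 of the 10 had a positive log2 fold change (Nqo1, Txnrd1, Srxn1, Nfe2l2) and 6 a negative one (Gclc, Gclm, Gss, Gsr, Hmox1, Keap1), where 51.2% of all tested genes were positive and 48.8% negative. None of the 10 passed edgeR's quasi-likelihood test at an adjusted p of 0.05, against a background of 43 genes, or 0.339% of the 12672 tested, and none at 0.1 (1.20% of all). An unadjusted p under 0.05 was reached by 2 of the 10 (Gclc and Gsr, both lower), where 15.0% of all tested genes reached it and 7.70% did so as lower. DESeq2 called the same 2 genes lower, against 5.74% called of the genes it tested and 2.72% called lower. Groups that did not overlap, among the 10 only for Gclc and Gsr, were found for 21.9% of all tested genes, 11.3% as lower. A share of 2 in 10 is thus close to the background for overlap and for the unadjusted p. The median log2 fold change over the 10 was -0.11, against 0.0091 over all tested genes.

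**Figure D1:**
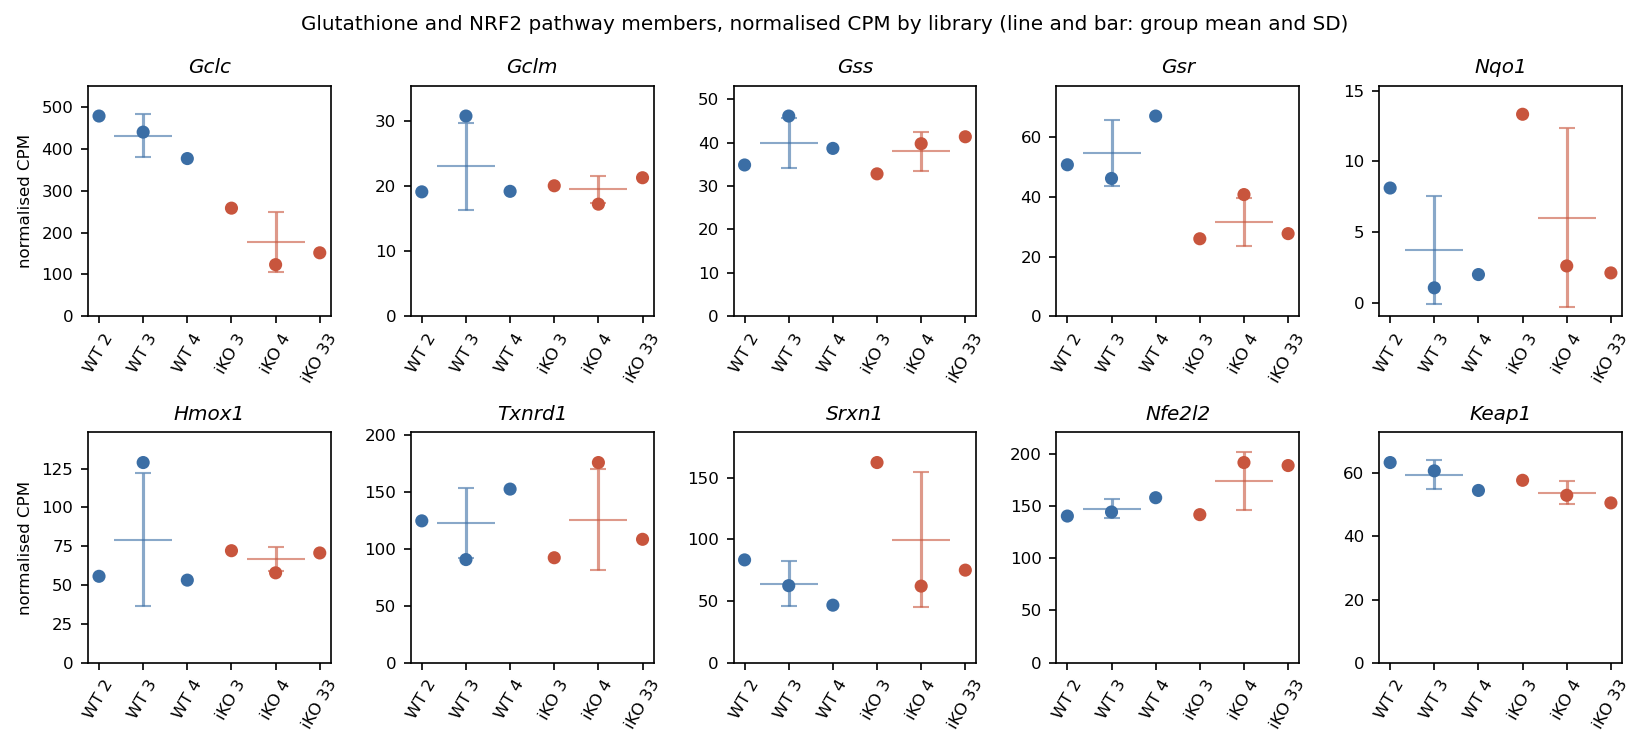
Normalised CPM (y axis, one panel per gene) of the 10 genes in each of the 6 libraries (x axis), blue for the label WT and red for iKO, with group mean and SD (n = 3). Gclc and Gsr separate the groups, while single libraries set the highest values of Hmox1 (WT 3) and of Nqo1 and Srxn1 (iKO 3).

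Gclc (chromosome 9, 77754535 to 77794485, plus strand, mm10) encodes the catalytic subunit of glutamate-cysteine ligase, the rate-limiting enzyme of glutathione synthesis. WT 2, WT 3 and WT 4 held 478, 440 and 377 CPM of its transcript, and iKO 3, iKO 4 and iKO 33 held 258, 123 and 152 CPM. All 3 libraries labelled iKO were below all 3 labelled WT, and iKO 3 lay nearest to them. The means were 432 ± 51.3 and 178 ± 71.2 CPM (SD, n = 3). This gave a log2 fold change of -1.28 (SE 0.27), which did not reach the threshold in edgeR (adjusted p = 0.121). The negative sign held under each of the 15 alternatives, with values between -1.65 and -1.07. Adjusted p-values ran from 0.000537 in DESeq2 to 0.633, the latter with only the libraries numbered 3 and 4 and no replicate block. With all libraries the edgeR and limma-voom alternatives gave 0.101 to 0.130. In edgeR Gclc passed only without iKO 3 (-1.65, adjusted p = 0.0454). The authors' deposited table, which rests on the same cells and is no independent support, lists Gclc at -1.05 (SE 0.24, adjusted p = 0.000649). Its log2 fold changes may be on another scale, since it lists Gata6 at 1.23 and Nqo1 at 0.156, against 2.59 and 0.695 in DESeq2 here. Of all genes with an adjusted p in the authors' deposited table, 5.90% were under 0.05, 3.05% as higher and 2.85% as lower.

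The modifier subunit gene Gclm (chromosome 3, 122245557 to 122270732, plus strand) did not show the difference seen in Gclc. It measured 19.1, 30.7 and 19.2 CPM in WT 2, WT 3 and WT 4, and 20.02, 17.2 and 21.2 CPM in iKO 3, iKO 4 and iKO 33. WT 3 was the highest, and the other 5 libraries lay between 17.2 and 21.2 CPM. Its log2 fold change of -0.24 (SE 0.22, edgeR adjusted p = 0.657) became 0.027 without WT 3. Within a library the ratio of the 2 subunits does not depend on how libraries are scaled. For each Gclm count WT 2, WT 3 and WT 4 held 25.1, 14.3 and 19.7 Gclc counts, and iKO 3, iKO 4 and iKO 33 held 12.9, 7.17 and 7.14. These groups did not overlap, although WT 3 and iKO 3 lay close together. On the log2 scale the ratio was 4.26 ± 0.40 in the libraries labelled WT and 3.12 ± 0.49 in those labelled iKO (SD, n = 3), a difference of -1.14 that ranged from -1.42 without iKO 3 to -0.95 without WT 2. The ratio is one of counts per gene, not of protein subunits, and was described without a test because Gclc was already known to be lower.

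Gss (chromosome 2, 155563181 to 155592810, minus strand), the enzyme that adds glycine in the second step, had overlapping groups. Its values were 34.9, 46.1 and 38.7 CPM in WT 2, WT 3 and WT 4 and 32.8, 39.7 and 41.3 CPM in iKO 3, iKO 4 and iKO 33. The highest value was in WT 3 and the lowest in iKO 3. The log2 fold change was -0.07 (SE 0.15, edgeR adjusted p = 0.871), turning to 0.046 without WT 3 and 0.024 without iKO 3.

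Gsr (chromosome 8, 33652523 to 33698163, plus strand), glutathione reductase, was the other gene whose groups stood apart. It measured 50.7, 46.1 and 67.0 CPM in WT 2, WT 3 and WT 4, and 25.9, 40.7 and 27.7 CPM in iKO 3, iKO 4 and iKO 33. The gap between the groups was narrow, from 40.7 in iKO 4 to 46.1 in WT 3. The means were 54.6 ± 10.97 and 31.4 ± 8.08 CPM (SD, n = 3), with a log2 fold change of -0.80 (SE 0.22, edgeR adjusted p = 0.180). Over the 15 alternatives the values ran from -1.03 to -0.63, and adjusted p-values from 0.0313 in DESeq2 to 0.644. The authors' deposited table gave -0.68 (SE 0.21, adjusted p = 0.0314). Gsr was the lowest of all 6 libraries in iKO 3, whereas Gclc was lowest in iKO 4, so the 2 genes did not order the libraries labelled iKO alike.

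Transcripts of genes were placed on one scale by dividing CPM by the exon length of each gene in kilobases (union of annotated exons, which can overstate the length of the transcripts in use). In the libraries labelled WT, Gclc was highest at 115 ± 13.6 CPM per kb (SD, n = 3), above Hmox1 at 45.3 ± 24.6 with no overlap. Hmox1 was not separated from Nfe2l2 (38.8 ± 2.43), and Srxn1 (22.8 ± 6.52) lay below Nfe2l2 without overlap. Srxn1, Gsr (19.8 ± 3.98), Txnrd1 (17.3 ± 4.38) and Keap1 (12.7 ± 0.965) each overlapped the next in the order. Gss (6.74 ± 0.969) lay below Keap1, and Gclm (3.65 ± 1.06) below Gss, both without overlap, while Gclm and Nqo1 (2.39 ± 2.47) overlapped. In the libraries labelled iKO, Gclc was still first in the order of means at 47.2 ± 18.9 CPM per kb, but its range overlapped that of Nfe2l2 (45.8 ± 7.36). There Gsr (11.4 ± 2.93) and Keap1 (11.4 ± 0.775) overlapped, and both were below Txnrd1 (17.7 ± 6.26) in the order of means.

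**Figure D2:**
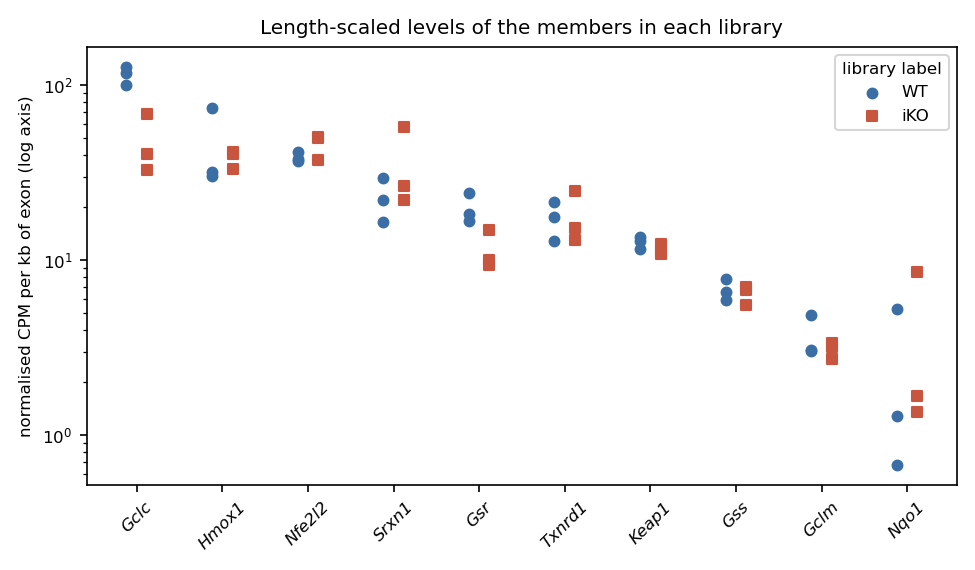
Normalised CPM per kilobase of exon (log axis) for the 10 genes, ordered by their mean in the libraries labelled WT, with circles for WT and squares for iKO libraries. Gclc lay at 100.04 to 127 in the libraries labelled WT, above every other gene, and at 32.8 to 68.6 in those labelled iKO, overlapping Nfe2l2, Hmox1 and Srxn1.

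Of the NRF2 target genes, Nqo1 and Srxn1 varied mostly with single libraries. Nqo1 (chromosome 8, 107388225 to 107403206, minus strand), a quinone reductase, measured 8.11, 1.05 and 1.99 CPM in WT 2, WT 3 and WT 4, and 13.3, 2.60 and 2.11 CPM in iKO 3, iKO 4 and iKO 33. The highest library was 12.7 times the lowest, and each group held 1 high library and 2 low ones. Its log2 fold change of 0.71 (SE 0.96, edgeR adjusted p = 0.782) turned to -0.63 without iKO 3 and stood at 1.98 without WT 2. Srxn1 (chromosome 2, 152105516 to 152111376, plus strand), sulfiredoxin, which reactivates over-oxidised peroxiredoxins, measured 83.4, 62.5 and 46.7 CPM in WT 2, WT 3 and WT 4 and 162, 62.1 and 75.1 CPM in iKO 3, iKO 4 and iKO 33. WT 2 was again the highest of its group and iKO 3 the highest of all. The log2 fold change of 0.64 (SE 0.39, edgeR adjusted p = 0.493) was 0.10 without iKO 3.

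The same 2 libraries were also the highest of their groups in summed keratinocyte markers. The sums were 52911 CPM in WT 2 and 59236 in iKO 3, against 37952 to 42020 in the other 4 libraries. Krt5 and Krt14 made up most of them (23621 and 21993 CPM in iKO 3). Sfn, Perp and Cdh1 were also highest in iKO 3, whereas Col17a1 and Itga6 were lowest there (1156 and 359 CPM). In iKO 3 the summed level of 38 ribosomal protein genes was 50022 CPM, against 40346 to 42240 in the other 5. The part of these differences in the levels of Nqo1 and Srxn1 was not tested. iKO 3 was the highest library for 2 of the 10 genes and for 21.4% of all tested genes. To set the sequences of these 2 target genes side by side, the bases upstream of their RefSeq start sites are shown, 250 for each on GRCm38.p6: Nqo1 on the minus strand at chr8:107403206-107403455 and Srxn1 on the plus strand at chr2:152105274-152105523. Capitals mark matches, on either strand, to the antioxidant response element core TGACNNNGC or its variant TGAGNNNGC.
Nqo1: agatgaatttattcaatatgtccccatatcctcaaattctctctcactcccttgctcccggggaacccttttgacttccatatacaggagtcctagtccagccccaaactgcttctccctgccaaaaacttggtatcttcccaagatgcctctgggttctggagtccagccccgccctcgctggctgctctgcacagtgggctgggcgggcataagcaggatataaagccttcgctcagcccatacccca
Srxn1: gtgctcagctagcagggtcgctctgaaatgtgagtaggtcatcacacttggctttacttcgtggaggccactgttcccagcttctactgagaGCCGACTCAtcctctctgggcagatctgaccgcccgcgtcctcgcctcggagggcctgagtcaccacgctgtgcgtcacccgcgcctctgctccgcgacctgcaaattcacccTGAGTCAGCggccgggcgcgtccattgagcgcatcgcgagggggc
The Srxn1 window held 2 matches to TGAGNNNGC, the nearer one (TGAGTCAGC) 45 to 37 bases before the start site and overlapping the AP-1 motif TGAGTCA, and the farther one 158 to 150 bases before it on the opposite strand. The Nqo1 window held neither motif, which says nothing of sites outside it.

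WT 3 was the highest library for Gclm, Gss and Hmox1 among the 10, and for 21.0% of all tested genes. Hmox1 (chromosome 8, 75093621 to 75100589, plus strand), haem oxygenase 1, which breaks down haem, measured 55.7, 129 and 53.2 CPM in WT 2, WT 3 and WT 4, and 72.2, 57.9 and 70.7 CPM in iKO 3, iKO 4 and iKO 33. Apart from WT 3, the libraries labelled iKO were all above those labelled WT. The log2 fold change of -0.25 (SE 0.35, edgeR adjusted p = 0.793) turned to 0.30 without WT 3, which did not pass either (adjusted p = 0.396). The authors' deposited table lists a fold change for Hmox1 and no p-value. For the modifier subunit of the first step, the 250 bases before the Gclm start site, on the plus strand of GRCm38.p6 at chr3:122245307-122245556, are shown with the same marking.
Gclm: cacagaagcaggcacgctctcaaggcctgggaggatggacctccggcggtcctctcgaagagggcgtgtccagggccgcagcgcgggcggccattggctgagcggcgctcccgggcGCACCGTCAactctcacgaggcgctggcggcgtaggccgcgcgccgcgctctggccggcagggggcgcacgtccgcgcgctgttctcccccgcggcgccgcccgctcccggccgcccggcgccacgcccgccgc
This window held 1 match to TGACNNNGC, on the opposite strand, 134 to 126 bases before the start site. RefSeq start sites were matched for 7 of the 10 genes, with 9 start sites among them, and not for Gclc, Gsr or Hmox1. Of the 9 windows, 4 held at least 1 of the 2 motifs (Gclm, Srxn1, Nfe2l2 and 1 of 3 for Txnrd1). Over all 32851 windows of that length, 10.2% held TGACNNNGC, 14.4% TGAGNNNGC and 23.0% either one. A match is a run of letters and not a measured binding site.

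Txnrd1 (chromosome 10, 82833951 to 82897712, plus strand), the cytosolic thioredoxin reductase, had overlapping groups as well. Its values were 125, 90.8 and 153 CPM in WT 2, WT 3 and WT 4, and 92.4, 176 and 109 CPM in iKO 3, iKO 4 and iKO 33. The libraries numbered 4 were the highest of each group and those numbered 3 the lowest. The log2 fold change was 0.035 (SE 0.28, edgeR adjusted p = 0.969), and it was -0.14 without WT 3 and -0.29 without iKO 4.

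The genes of the regulator and its inhibitor differed little between the groups. Nfe2l2 (chromosome 2, 75675513 to 75704641, minus strand) measured 140, 144 and 158 CPM in WT 2, WT 3 and WT 4 and 142, 191 and 188 CPM in iKO 3, iKO 4 and iKO 33. iKO 4 and iKO 33 were above every library labelled WT, and iKO 3 lay among them. Its log2 fold change was 0.24 (SE 0.14, edgeR adjusted p = 0.483). Keap1 (chromosome 9, 21229730 to 21239361, minus strand) measured 63.3, 60.7 and 54.5 CPM in the libraries labelled WT and 57.7, 52.9 and 50.5 CPM in those labelled iKO, with overlapping groups. Its range over all 6 libraries was the narrowest of the 10 genes, at 1.25 times between lowest and highest, and its log2 fold change was -0.15 (SE 0.11, edgeR adjusted p = 0.603). Neither gene changed sign under any of the 15 alternatives.

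**Figure D3:**
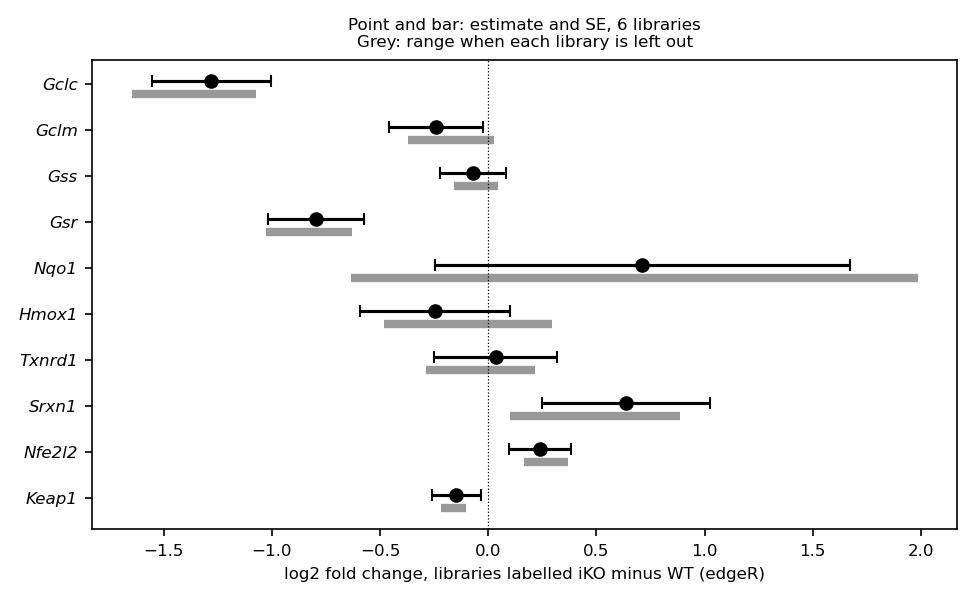
Log2 fold changes (x axis, libraries labelled iKO minus WT, edgeR) of the 10 genes with their SE, and in grey the range when each library is left out in turn. The ranges of Gclc, Gsr, Srxn1, Nfe2l2 and Keap1 stayed on one side of 0, and that of Nqo1 ran from -0.63 to 1.98.

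Around these genes, 7 further lists of the pathway were examined, with 128 genes, of which 112 passed the count filter. None passed edgeR's test at an adjusted p of 0.05 (0.339% of all tested genes did). An unadjusted p under 0.05 was reached by 25 of the 112, or 22.3%, against 15.0% of all tested genes, 15 of them higher and 10 lower, where 7.32% of all tested genes were higher and 7.70% lower at that level. DESeq2 gave an adjusted p to 115 of the 128 and called 12, or 10.4%, against 5.74% of all genes it tested, with 7 higher (3.01% of all) and 5 lower (2.72%). The count filter of edgeR had removed 1 of these 12, Slc1a1. When each library was left out in turn, 20 to 22 genes of these lists had an unadjusted p under 0.05 in edgeR, or 17.4% to 19.6% against 11.1% to 14.9% of all tested genes, and none was called. These shares were closest without WT 3, at 17.5% and 14.9%. iKO 3 was the highest library for 31 of the 112 genes, more than any other library, and for 21.4% of all tested genes. Without iKO 3, 55 of the genes were at higher and 60 at lower values, against 61 and 51 with all libraries.

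In the supply of glutathione precursors and the turnover of glutathione, 6 of 14 tested genes were at higher and 8 at lower values (median -0.17), and without WT 4 it was 8 and 7 (median 0.076). Unadjusted p-values under 0.05 were reached by 7 of the 14, or 50%, against 15.0% of all tested genes, 5 of them lower and 2 higher. Without WT 3, and likewise without iKO 3, it was 4 of 15, or 26.7%, with 2 in each direction. Cth, cystathionine gamma-lyase, which makes cysteine from cystathionine, had means of 57.6 ± 9.24 CPM under the label WT and 27.7 ± 10.8 under the label iKO (SD, n = 3; log2 fold change -1.06, SE 0.29). Slc3a2, the heavy chain that pairs with the cystine carrier and other amino acid transporters, stood at 271 ± 28.8 and 196 ± 13.2 CPM (-0.46, SE 0.12). Neither passed in edgeR (adjusted p = 0.178 and 0.168). DESeq2 called both lower (adjusted p = 0.0176 and 0.0368, and up to 0.633 over the alternatives for each). DESeq2 also called Slc1a1, a carrier of glutamate and cysteine named after its value was seen, in the other direction (adjusted p = 0.000337), with 0.0461, 0.0507 and 0.0569 CPM in WT 2, WT 3 and WT 4 and 3.10, 0.244 and 0.882 CPM in iKO 3, iKO 4 and iKO 33. The cystine carrier Slc7a11 itself, named after its value was seen, stood at 0.058 (SE 0.30). The dipeptidase gene Cndp2 (-0.26, SE 0.10) was at lower values, and Ggt5 of the gamma-glutamyl transferase family (1.86, SE 0.50) at higher ones, with means of only 0.120 and 0.394 CPM. Both missed the threshold in edgeR (adjusted p = 0.287 and 0.176).

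Among the enzymes that use glutathione, 13 of 23 tested peroxidase and transferase genes were higher and 10 lower (median 0.064), with a median of -0.018 without WT 3 and -0.038 without iKO 3. Groups did not overlap for 6 of the 23, or 26.1%, against 21.9% of all tested genes, 4 of them higher and 2 lower. An unadjusted p under 0.05 was reached by 3 of the 23, or 13%, against 15.0% of all tested genes. Gstp1, the pi class glutathione transferase, had the smallest p of the 112 genes. It measured 75.6, 58.7 and 73.6 CPM in WT 2, WT 3 and WT 4 and 34.2, 38.8 and 27.3 CPM in iKO 3, iKO 4 and iKO 33, with no overlap. The log2 fold change of -1.05 (SE 0.17) just missed the threshold (edgeR adjusted p = 0.0657) and passed in edgeR without a count filter (0.0366) and in DESeq2 (2.12e-05), while the highest adjusted p over the alternatives was 0.569. Gstp1 has a near-identical neighbour, Gstp2, which had 0.0444 to 0.323 CPM over the libraries, so reads shared between the copies make its level uncertain. Mgst2 (1.82, SE 0.48), Gstt3 (0.97, SE 0.34) and Gstm2 (0.46, SE 0.22) were at higher values under the label iKO with no overlap and did not pass in edgeR (adjusted p from 0.170 to 0.378), and the means of Mgst2 were only 0.569 and 2.03 CPM. DESeq2 called Mgst2 (adjusted p = 0.0146, and up to 0.650 over the alternatives). Transferase genes have close relatives, so their levels are uncertain too.

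In the thioredoxin, peroxiredoxin and glutaredoxin list 9 of 17 genes were higher and 8 lower (median 0.073), and 7 and 10 without iKO 3 (median -0.054). An unadjusted p under 0.05 was reached by 6 of the 17, or 35.3%, against 15.0% of all tested genes, 4 higher and 2 lower. Without WT 2, and likewise without WT 4, it was 3 of 17, or 17.6%, against 11.1% and 12.4% of all tested genes. Of the 6 peroxiredoxin genes, whose products reduce hydrogen peroxide, 5 had a positive log2 fold change and Prdx6 a negative one. Prdx6, the member that is recycled by glutathione, had means of 418 ± 47.9 CPM under the label WT and 296 ± 25.8 under the label iKO (SD, n = 3; log2 fold change -0.49, SE 0.13). Mitochondrial Prdx3 stood at 121 ± 17.6 and 171 ± 22.7 CPM (0.49, SE 0.15), and Prdx2 at 325 ± 12.6 and 391 ± 27.6 CPM (0.27, SE 0.10). Prdx5, named after its value was seen, stood at 164 ± 12.8 and 224 ± 53.2 CPM (0.45, SE 0.18), and Prdx1 (0.15) and Prdx4 (0.20) had overlapping groups. None of the 6 passed in edgeR (adjusted p from 0.168 to 0.770). Sesn2, a stress-induced sestrin, stood at 21.8 ± 2.35 and 33.7 ± 3.12 CPM (0.63, SE 0.14, edgeR adjusted p = 0.123). DESeq2 called Prdx6 lower and Sesn2 higher (adjusted p = 0.0392 and 0.00874, and up to 0.644 and 0.633 over the alternatives).

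Of 18 regulators of NRF2, all tested, 10 were higher and 8 lower (median 0.20). An unadjusted p under 0.05 was reached by 3, or 16.7%, close to the 15.0% of all tested genes. These 3 were higher, and 1 lower gene was among those that reached it without WT 2 or without iKO 4. Nfe2l3, which encodes the NRF2 relative NRF3, measured 7.24, 3.001 and 5.20 CPM in WT 2, WT 3 and WT 4 and 14.9, 11.6 and 12.6 CPM in iKO 3, iKO 4 and iKO 33, with no overlap. Sqstm1, the autophagy receptor p62, which binds KEAP1, stood at 141 ± 11.2 and 204 ± 27.2 CPM (SD, n = 3). Their log2 fold changes of 1.35 (SE 0.32) and 0.53 (SE 0.13) missed the threshold in edgeR (adjusted p = 0.147 and 0.158) and were called by DESeq2 (0.00193 and 0.0324, and up to 0.569 and 0.644 over the alternatives). Fbxw11, a substrate receptor of a ubiquitin ligase that acts on NRF2, stood at 0.27 (SE 0.10), and Dpp3, which binds KEAP1, at 0.26 (SE 0.12).

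Other NRF2 target genes were evenly split, with 11 of 22 higher and 11 lower (median 0.028). Trim16 had means of 84.7 ± 10.3 CPM under the label WT and 135 ± 20.4 under the label iKO, and Osgin1, an oxidative stress-induced growth inhibitor, at 19.6 ± 6.31 and 44.4 ± 22.2 CPM (SD, n = 3). Osgin1, like Srxn1 and Nqo1, was highest in iKO 3, at 70.1 CPM, and its log2 fold change of 1.18 was 0.69 without that library. Fth1, the ferritin heavy chain that stores iron, stood at 891 ± 79.9 and 617 ± 55.3 CPM, and has processed pseudogenes that can take its reads. Log2 fold changes were 0.67 (SE 0.15), 1.18 (SE 0.39) and -0.53 (SE 0.12), and edgeR passed none of the 3 (adjusted p = 0.130, 0.237 and 0.137). DESeq2 called all 3 (0.00765, 0.0371 and 0.0119, and up to 0.636 over the alternatives). They made up 13.6% of the 22, where DESeq2 called 5.92% of all genes that edgeR tested. Before adjustment, edgeR's p was below 0.05 for 4 of the 22 (18.2%), close to the background of 15.0%. That share fell to 8.7% of 23 genes without WT 3 and without iKO 3, below backgrounds of 14.9% and 12.4%. Blvrb, a biliverdin reductase that acts after haem oxygenase, stood at 0.53 (SE 0.22, edgeR adjusted p = 0.325).

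Of the NADPH suppliers 6 of 10 were at higher and 4 at lower values (median 0.0051), and without WT 4 it was 3 and 7 (median -0.11). The median was also negative without iKO 3 (-0.0071) and without iKO 33 (-0.091). An unadjusted p under 0.05 was reached by 1 of the 10, or 10%, against 15.0% of all tested genes. This was Rpia of the pentose phosphate pathway, with means of 23.5 ± 0.993 CPM under the label WT and 16.7 ± 2.09 under the label iKO (SD, n = 3; edgeR adjusted p = 0.183). G6pdx, the X-linked gene of the first enzyme of that pathway, stood at 0.27 (SE 0.29) and turned to -0.10 without iKO 3. Pgd, of a later step, stood at 0.13 (SE 0.15) and at -0.011 without WT 4, and Nnt, the mitochondrial transhydrogenase, at -0.30 (SE 0.33), -0.011 without iKO 3 and -0.65 without iKO 33. Of 8 superoxide, catalase and methionine sulphoxide genes, 6 were at higher and 2 at lower values (median 0.16). It was 4 and 4 without iKO 3 (median -0.014) and without WT 4 (median 0.069). Ccs, the copper chaperone of Sod1, stood at 0.33 (SE 0.12) and Sod1 itself at 0.46 (SE 0.21). Neither passed the threshold in edgeR (adjusted p = 0.267 and 0.362). The groups of these 2 genes did not overlap, a share of 25% of the 8 that is close to the 21.9% of all tested genes. An unadjusted p under 0.05 was reached by 1 of the 8, or 12.5%, against 15.0% of all tested genes. Msrb2 (1.48, SE 0.75) and Msrb1 (0.25, SE 0.18), which repair oxidised methionine, overlapped between groups.

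**Figure D4:**
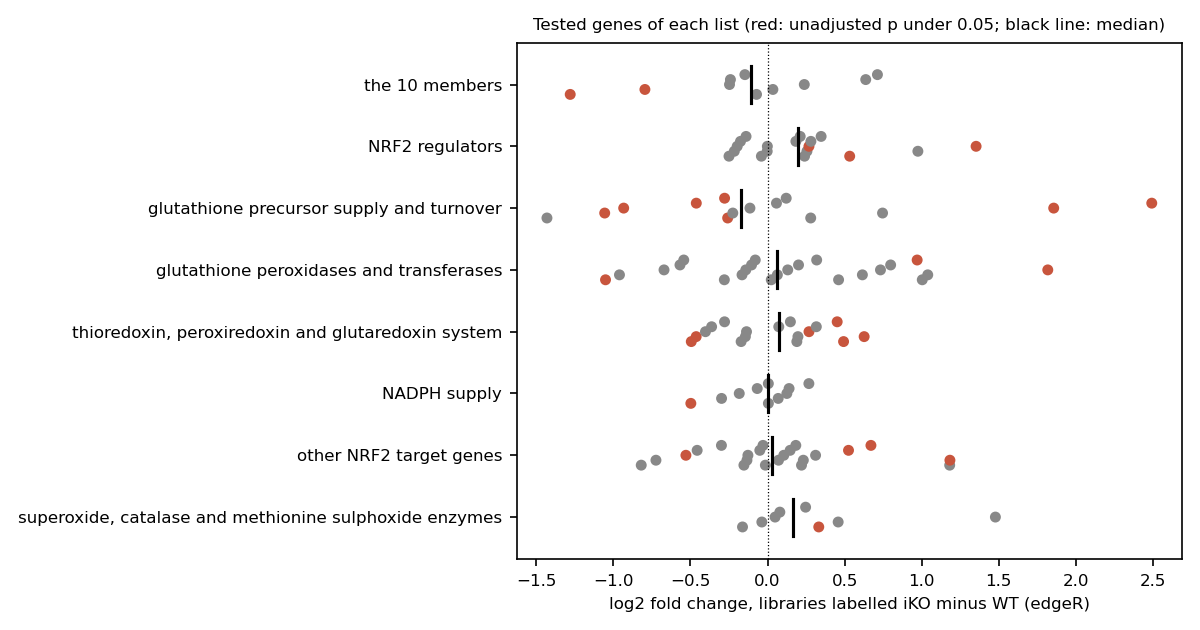
Log2 fold changes (x axis, libraries labelled iKO minus WT, edgeR) of the tested genes of each list, red where the unadjusted p was under 0.05, with the list median as a black line. Medians lay between -0.17 and 0.20, and the 10 genes described first had a median of -0.11.

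Across the 6 libraries, the genes whose log2 CPM ran most like that of Gclc were Rmdn3 (Pearson r = 0.9996), Lgals7 (0.9909), Mki67ip (0.9853) and Pole3 (0.9853), taken as the highest r among tested genes whose mean log2 CPM was 3 or more. The points share library and scaling, and no test was made on them. The size of the difference was not alike. Lgals7, a galectin of stratified epithelia, had means of 118 ± 37.0 CPM under the label WT and 23.3 ± 13.9 under the label iKO (log2 fold change -2.35, SE 0.45), whereas Rmdn3 stood at 34.2 ± 1.44 and 26.1 ± 2.97 CPM (SD, n = 3; -0.39, SE 0.13). Of 8 tested genes within 500 kb of Gclc on chromosome 9, 6 were lower and 2 higher, with a median of -0.21 and no adjusted or unadjusted p under 0.05 in edgeR. Elovl5, a fatty acid elongase gene, stood at 63.4 ± 7.66 and 41.5 ± 14.6 CPM (SD, n = 3; -0.61, SE 0.27) with no overlap, and its adjusted p over the alternatives, DESeq2 included, ran from 0.195 to 0.657. Without iKO 3 its log2 fold change was -0.35. Fbxo9 (-0.16, SE 0.17), Ick (-0.25, SE 0.32) and the glutathione transferase gene Gsta4 (0.32, SE 0.39, and -0.15 without iKO 3) had overlapping groups.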

How the data were processed

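Messenger RNA libraries (TruSeq RNA v2) from keratinocytes, 3 labelled WT and 3 iKO, were compared. The deposited table holds whole-number counts per gene symbol, not normalised. The authors used TopHat2, HTSeq, DESeq2 and DESeq on mm10, per the submitters' processing notes, without versions. For the annotation and the strand setting the sources used here give no entry. The 5 summary rows, 27.4% to 35.5% of each column, entered neither library sizes nor tests. The authors' own comparison, per the file headers, holds p-values, a Wald score, log2 fold changes with SE and a normalised mean signal. The column numbered 33 matches no title and was used as an iKO replicate without a number of its own. No 2 libraries of a group agreed within sampling noise (smallest chi-square per degree of freedom 51.7).

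The test was edgeR 4.0.16 under R 4.3.3: filterByExpr (minimum count 10, which left 12672 genes and all 10 described here), TMM scaling, robust glmQLFit, then glmQLFTest, two-sided, Benjamini-Hochberg adjustment over all tested genes, group as the only term. SE is the absolute log2 fold change over the square root of F, and is approximate. Log2 CPM used a prior count of 2. Alternatives were other scalings and count filters, DESeq2 1.42.0, limma-voom (limma 3.58.1), no robust estimation and leaving out each library. The libraries numbered 3 and 4 of both groups were also fitted alone, with and without a replicate block. Where a gene called by DESeq2 has its highest adjusted p over the alternatives given, that value came from these libraries without the block. The edgeR, DESeq2 and limma-voom tests, each with its main settings and all 6 libraries, were run on simulated data as a check. The other alternatives, among them the replicate block and the fits on fewer libraries, were not checked in this way.

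The genes and lists were chosen with earlier results of these data known. Named by rule were Gata6, the 10 genes, the up to 4 genes of each pathway list with the smallest p, the 4 genes most like Gclc, and the up to 4 genes near Gclc with the smallest p, leaving out predicted models. A list of mitochondrial transcripts matched no row and was not used. Positions and exon lengths come from GENCODE M21 on mm10, in which 21777 of 23420 symbols were found, and upstream sequences from RefSeq on GRCm38.p6. Intervals of counting error are not given. The 10 genes had 70 to 34741 counts per library. Nqo1 had the fewest, at 70 to 417, so counting error weighs most on its values.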

Additional observations from a re-analysis of the deposited data

How the results depend on the processing

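Each fold change was recomputed under 15 alternatives. Over all genes, 43 were called; the number was 76 without a count filter, 760 in DESeq2 and 7 (without WT 2) to 31 (without WT 3) when each library was left out. Of the 10 genes, 0 were called in edgeR, limma-voom or at an adjusted p of 0.1; 2 were called in DESeq2 (Gclc and Gsr), and between 0 and 1 when each library was left out (Gclc without iKO 3). The groups share the replicate numbers 3 and 4. With a replicate block on those 4 libraries 103 genes were called over all, and 4 without it, and none of the 10 either way; Gclc stood at -1.19 with the block and -1.10 without. Deviations from group means correlated at 0.297 between WT 3 and iKO 3 and 0.661 between WT 4 and iKO 4, across genes. Of combinations with unlike numbers, WT 2 and iKO 3 reached 0.325, whereas WT 3 and iKO 4 stood at -0.529 and WT 4 and iKO 3 at -0.572. The value for WT 4 and iKO 4 was the highest of all combinations. The labels give the numbers no shared source, so they were not taken as pairs. Whether libraries of one number share a source was not tested. The direction turned only when a library was left out: the leave-one-out ranges were -0.37 to 0.027 for Gclm, -0.16 to 0.046 for Gss, -0.63 to 1.98 for Nqo1, -0.48 to 0.30 for Hmox1, -0.29 to 0.21 for Txnrd1, -0.10 to 0.45 for G6pdx, -0.011 to 0.22 for Pgd and -0.15 to 0.62 for Gsta4. The difference in the log2 ratio of Gclc to Gclm ranged from -1.42 to -0.95. The causes were not tested. Scaling moved the median of all genes by under 0.1. Without WT 3, 6 of the 10 genes were higher and 4 lower. Reads not uniquely aligned, which are in no gene's count, made up 29.5% to 30.5% of counts in the libraries labelled WT and 21.7% to 26.5% in those labelled iKO; their part in the results was not tested.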
